A study of Homo sapiens with 12 samples.

Results

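Interferon-stimulated genes are the genes that a cell switches on when an interferon binds its receptor, and 44 of them were followed here through an RNA sequencing experiment on mechanical memory in Cal27, an established human line derived from a tongue squamous carcinoma. The 44 are a list of gene symbols given by name, and the list was drawn up with earlier results of these data known. All 44 were found among the 25382 symbols of the count table, and all 44 were among the 15437 genes abundant enough to be tested. In every condition, wild-type Cal27 cells grew for 5 days of conditioning and for 1 day after replating, on polyacrylamide gels coated with collagen. Soft-to-soft cells were conditioned and replated on soft gels (0.48 kPa) with no agent. Stiff-to-soft cells spent the conditioning on stiff gels (20 kPa) and were replated on soft gels. LPA-to-soft cells received lysophosphatidic acid (LPA), a signalling lipid with its own family of membrane receptors, while conditioned on soft gels, and were replated on soft gels without it. LPA-to-FAKi cells had that conditioning and then received a FAK inhibitor while replated on soft gels; FAK, focal adhesion kinase, signals from the adhesions that integrins form. Each condition had 3 libraries, numbered 1 to 3 by the labels. The sources used here do not state the doses of the agents or what a replicate number stands for. Nor do the labels state that replicates are separate cultures; the p-values below therefore reflect only the spread between these libraries, which may be technical. The study's design text sets cells conditioned by stiffness or LPA alone, which it counts as having learned, against the soft-to-soft and LPA-to-FAKi cells.

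As background, type I interferons bind the receptor pair IFNAR1 and IFNAR2, and type III interferons bind IFNLR1 with IL10RB. Both activate the kinases JAK1 and TYK2, which phosphorylate STAT2 among other proteins; STAT2 and IRF9 are parts of a complex that binds a DNA element called the interferon-stimulated response element (ISRE). The induced proteins sense viral RNA, block viral entry, translation and release, and attach the ubiquitin-like protein ISG15 to other proteins. Epithelial cells and many carcinoma lines also express a part of these genes without added interferon.

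The promoters of 6 members on which the results below turn are printed first, because they show the element itself: IFIT1, IFI6, IFI44L and EPSTI1, whose levels were lower in LPA-to-FAKi than in soft-to-soft libraries, ISG15, a member that followed the replicate numbers closely, and SAMD9, which did not move with the others. Each is the stretch of 250 bases before the transcript start in RefSeq on GRCh38.p14, read 5′ to 3′ on the strand of the gene, and capitals mark matches to the ISRE core GAAANNGAAA on either strand, which reads TTTCNNTTTC where the match lies on the other strand. The regions are chr10:89392373-89392622 (plus strand) for IFIT1, chr1:27672193-27672442 (minus strand) for IFI6, chr1:78620198-78620447 (plus strand) for IFI44L, chr13:42992242-42992491 (minus strand) for EPSTI1, chr1:1013247-1013496 (plus strand) for ISG15 and chr7:93117980-93118229 (minus strand) for SAMD9.
IFIT1: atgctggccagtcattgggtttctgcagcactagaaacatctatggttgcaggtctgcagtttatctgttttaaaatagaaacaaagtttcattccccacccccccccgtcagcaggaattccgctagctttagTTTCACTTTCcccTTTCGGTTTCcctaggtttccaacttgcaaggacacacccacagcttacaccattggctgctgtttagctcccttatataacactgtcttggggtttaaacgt
IFI6: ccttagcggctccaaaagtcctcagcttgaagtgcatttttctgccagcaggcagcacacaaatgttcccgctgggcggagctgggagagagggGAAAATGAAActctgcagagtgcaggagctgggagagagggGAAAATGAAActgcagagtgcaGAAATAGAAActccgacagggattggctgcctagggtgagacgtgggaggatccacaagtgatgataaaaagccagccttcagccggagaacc
IFI44L: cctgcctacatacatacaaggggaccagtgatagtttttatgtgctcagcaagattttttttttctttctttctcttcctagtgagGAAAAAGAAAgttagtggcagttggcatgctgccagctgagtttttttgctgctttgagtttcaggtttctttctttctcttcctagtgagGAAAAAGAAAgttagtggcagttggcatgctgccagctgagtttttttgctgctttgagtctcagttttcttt
EPSTI1: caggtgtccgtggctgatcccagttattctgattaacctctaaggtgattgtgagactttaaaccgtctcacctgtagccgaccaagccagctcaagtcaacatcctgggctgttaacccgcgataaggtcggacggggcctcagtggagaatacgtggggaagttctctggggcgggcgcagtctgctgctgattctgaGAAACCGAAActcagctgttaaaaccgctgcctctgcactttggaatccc
ISG15: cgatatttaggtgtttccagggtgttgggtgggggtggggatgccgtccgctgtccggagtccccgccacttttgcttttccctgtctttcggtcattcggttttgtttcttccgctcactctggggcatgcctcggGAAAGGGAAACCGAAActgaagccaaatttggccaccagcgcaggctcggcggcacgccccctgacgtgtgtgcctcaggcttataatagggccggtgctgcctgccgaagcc
SAMD9: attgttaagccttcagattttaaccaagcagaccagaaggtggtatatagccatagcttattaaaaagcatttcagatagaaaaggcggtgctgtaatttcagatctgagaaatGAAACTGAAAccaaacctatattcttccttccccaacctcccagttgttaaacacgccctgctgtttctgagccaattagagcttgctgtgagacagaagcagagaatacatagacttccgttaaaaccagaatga

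IFIT1 held 2 matches, at positions -116 and -103 from the transcript start, and IFI6 held 3, at -156, -115 and -93. IFI44L held matches at -164 and -73, and EPSTI1 held 1 at -50. In ISG15 the matches at -113 and -107 overlapped each other, and SAMD9 held 1 at -136. Promoters were found for 35 of the 44 members, 34 by symbol and 1 (DDX58) by synonym, with 46 starts in all; IRF7, DHX58, IFIT2, IFITM2, MX2, OAS2, OASL, USP18 and TRIM22 had none in the table. The ISRE core stood in 22 of those 35 members (62.9%) against 3.71% of the 27305 genes in the table, counting a gene where any of its starts had it, and 12 members held 2 or more matches. The core of another interferon-responsive element, the gamma-activated site, searched as TTCNNNGAA on both strands, stood in 11 of the 35 (31.4%) against 8.09% of genes. IRF9 had such a match at -63 and no ISRE core match. A match is a description of these letters, not a bound site.

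Total counts ran from 62953957 to 122311183 per library, and the lowest count of any member in any library was 302, so counting error was small for all 44. Low counts (1 to 19) set soft-to-soft replicates 1 and 2 apart: the even numbers made up 42.9% and 42.2% of them there and 96.8% to 97.8% in the other 10 libraries, so comparisons with soft-to-soft are also given without these 2. Mitochondrial genes took between 4.31% and 8.22% of counts. The squamous epithelial markers summed to between 6739 and 17000.2 CPM (read counts scaled to library size, with the TMM correction for library composition), and the other marker lists were far lower but not all at 0. The 8 leukocyte markers summed to between 13.9 and 47.5 CPM: 3 of them, CD3E and TYROBP included, were at 0 in all 12 libraries and PTPRC reached at most 0.0545 CPM, while CD14 reached 5.43 CPM and ITGAM 3.998 CPM. CD68, a lysosomal protein that marks macrophages, was at 41.9, 29.4 and 15.002 CPM in LPA-to-FAKi replicates 1, 2 and 3 and at 9.49 to 17.0 CPM in the other 9 libraries. Of the 4 plasmacytoid dendritic cell markers, CLEC4C, LILRA4 and IL3RA were at 0 throughout and TCF4 ran from 0.749 to 1.58 CPM. The 7 fibroblast markers summed to between 14.6 and 36.4 CPM, with COL1A1 at up to 30.9 CPM, and the 5 endothelial markers to between 5.74 and 37.8 CPM, with CDH5 at up to 36.3 CPM. In bulk RNA, fewer cells of a type and less RNA per cell cannot be told apart. Of the members, 21 overlap a gene on the opposite strand and 8 a gene on the same strand in GENCODE 29, and the strand setting of the counting is not given; IFIT1 and IFIT2 with LIPA, PARP9 with DTX3L and RSAD2 with CMPK2 are such pairs. The near-identical copies IFITM1, IFITM2 and IFITM3 may also have exchanged reads, which makes IFITM2 in particular uncertain.

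The mean level of the members followed the replicate number more than the condition, although single members did not all follow it alike. With condition as a term, 43 of 44 were higher in replicate 3 than in replicate 1 and 44 were higher in replicate 3 than in replicate 2, whereas 18 were higher and 26 lower in replicate 2 than in replicate 1. In replicates 1, 2 and 3, the soft-to-soft libraries had a mean log2 CPM over the members of 5.71, 5.23 and 6.85. LPA-to-soft libraries had 5.66, 5.31 and 6.63, stiff-to-soft libraries 5.49, 5.14 and 6.23, and LPA-to-FAKi libraries 4.86, 5.07 and 5.99. All 4 libraries of replicate 3 stood above all others, and LPA-to-FAKi was the lowest condition within each number. By condition the mean was 5.93 ± 0.83 in soft-to-soft, 5.87 ± 0.69 in LPA-to-soft, 5.62 ± 0.55 in stiff-to-soft and 5.31 ± 0.60 in LPA-to-FAKi (SD, n = 3), so neighbouring conditions differed by less than their spread. Replicate number held a median of 77.8% of a member's sum of squares and condition 13.4%, against 50.5% and 19.3% over all genes tested. Its share was above that of condition in 44 of 44 members, against 73.2% of all genes, and ran from 16.0% in ISG20, where 80.9% lay in neither, to 89.7% in TRIM25.

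**Figure D1:**
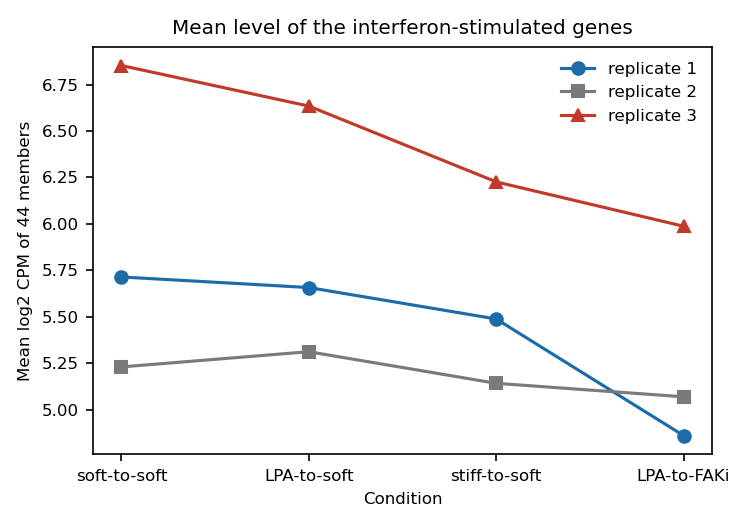
Mean log2 CPM of the 44 members on the y axis for each condition on the x axis, with 1 point a library and a line joining the libraries of a replicate number. LPA-to-FAKi is the lowest point of each line (4.86, 5.07 and 5.99) and replicate 3 lies above the other numbers throughout.

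Within replicate numbers, most members were lower after LPA conditioning and FAK inhibition than in untreated soft-to-soft cells, but the difference was smaller than the spread between numbers, and the test that leaves the numbers out called none. The edgeR quasi-likelihood test without the numbers called 0 of 44 members at a Benjamini-Hochberg adjusted p under 0.05 (0% of all genes), and DESeq2 called 0. In that edgeR test 1 member had an unadjusted p under 0.05, against 548 of the 15437 genes. Because libraries of 1 number deviated together, the fit with replicate number as a block is given beside it. With the block 37 members had an unadjusted p under 0.05, against 2559 of the 15437 genes. The block fit called 10 members, all lower, against 0.408% of all genes lower and 0.155% higher. By role these were 1 of 4 transcription factors (IRF9), 1 of 3 RNA sensors (DHX58), 2 of 4 IFIT genes (IFIT1 and IFIT2), 4 of 5 IFI genes (IFI6, IFI27, IFI44 and IFI44L), CMPK2 and EPSTI1. Over all 44, the median log2 difference was -0.54 with the block and -0.65 without it, near 0 over all genes, and 26 members were lower in all 3 pairs of the same number against 17.7% of genes.

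IFI6, a small mitochondrial and endoplasmic reticulum protein that limits viral replication and cell death, was at 152, 73.6 and 483 CPM in soft-to-soft replicates 1, 2 and 3 and at 47.4, 25.4 and 161 CPM in LPA-to-FAKi. Every LPA-to-FAKi library was below the soft-to-soft library of its number, though the groups overlapped. IFI6 fell by 1.59 ± 0.22 on the log2 scale with the block (SE, adjusted p = 0.0192), and its 3 pair differences were -1.68, -1.53 and -1.59. IFI44L, an antiviral gene named for its induction by interferon, was at 30.5, 10.0 and 119 CPM in soft-to-soft and 6.39, 4.81 and 36.2 CPM in LPA-to-FAKi, and over all 12 libraries its highest level was 26.2 times its lowest, the largest such ratio among the members. It fell by 1.63 ± 0.25 (adjusted p = 0.0251), with pair differences of -2.25, -1.06 and -1.71. EPSTI1, a gene first described in epithelial cells cultured with stroma, was at 15.6, 7.44 and 45.0 CPM in soft-to-soft and 4.75, 4.37 and 15.9 CPM in LPA-to-FAKi and fell by 1.33 ± 0.19 (adjusted p = 0.0233). In all of these genes the pair of replicate 2 gave the smallest difference.

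The IFIT proteins bind viral RNA and block its translation. IFIT1 was at 50.4, 45.2 and 190.0 CPM in soft-to-soft and 14.7, 26.3 and 73.6 CPM in LPA-to-FAKi, lower in each pair, and fell by 1.27 ± 0.19 with the block (adjusted p = 0.0250). IFIT2 was at 41.0, 53.4 and 126 CPM and 17.0, 34.2 and 66.9 CPM in the same order, and fell by 0.92 ± 0.14 (adjusted p = 0.0251). IRF9, the DNA-binding partner of STAT2, was at 30.6, 15.1 and 72.7 CPM in soft-to-soft and 16.3, 11.9 and 41.1 CPM in LPA-to-FAKi, and fell by 0.69 ± 0.11 (adjusted p = 0.0255). The other 4 members called were IFI44, IFI27, CMPK2 and DHX58. IFI44 fell by 0.64 ± 0.11, IFI27 by 0.68 ± 0.12, CMPK2, a mitochondrial nucleotide kinase, by 0.87 ± 0.17, and DHX58, a regulator of RIG-I-like RNA sensors, by 0.62 ± 0.12, with adjusted p of 0.0284, 0.0390, 0.0494 and 0.0459.

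The number of calls moved with single libraries, and the members called did not hold equally. Of 12 block fits that each left out 1 library, IFI6, IFI44L, IFIT1 and IFIT2 were called in 10. EPSTI1 was called in 9, IRF9 in 8, IFI44 in 7 and IFI27 in 6, and CMPK2 and DHX58 were called in 2 each. The 10 members called became 1 without soft-to-soft replicate 1 (0.0445% of genes lower), 0 without soft-to-soft replicate 3 (0%) and 3 without LPA-to-FAKi replicate 1 (0.0698%). They became 6 without stiff-to-soft replicate 3 (0.14%), 6 without LPA-to-soft replicate 2 (0.228%) and 29 without soft-to-soft replicate 2 (1.19%). In these fits the share of all genes called rose with the members' count, but it did not keep that order without LPA-to-FAKi replicate 2 or 3. Without the 2 libraries that differ in low counts, the median without the block was -1.40. Soft-to-soft was then replicate 3 alone, the library with the highest mean log2 CPM over the members (6.85), so replicate number and condition are mixed in that median. With the counts of the other 10 libraries halved, the block fit called 11 members (0.484% of genes lower). Without the block, the IRF9 difference turned to 0.013 when soft-to-soft replicate 3 was left out. Marker lists moved with this comparison. The 20 tested of 24 late squamous differentiation genes, whose summed levels were 579 to 2102 CPM in soft-to-soft and 557 to 2744 CPM in LPA-to-FAKi, were lower in mean log2 CPM in each pair, with differences of -0.17, -0.69 and -0.25 in replicates 1, 2 and 3. Single genes of this list went both ways, and in replicate 1 the sum was highest in LPA-to-FAKi. KRT1, KRT4, KRT10 and KRT13 were lower in each pair, whereas SPRR2A, SPRR2D and CALML3 were higher in each pair. KRT4 was at 189, 77.6 and 29.9 CPM in soft-to-soft and 9.93, 10.96 and 10.2 CPM in LPA-to-FAKi. SPRR1B was at 387, 333 and 58.2 CPM and 1093, 240 and 83.9 CPM in the same order. The squamous epithelial markers differed by -0.15, -0.53 and -0.10 and the 2 tested endothelial markers (CDH5 and VWF) by -1.15, -0.29 and -0.50. Against these list means, CDH1 of the epithelial list was higher in each pair, and CDH5 was higher in replicate 2. The 3 tested leukocyte markers (CD14, CD68 and ITGAM) differed by 0.02, 0.13 and 0.19. Of these 3, CD68 was higher in each pair, while CD14 and ITGAM were lower in replicates 1 and 2. The part of these lists in the members' difference was not tested.

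**Figure D2:**
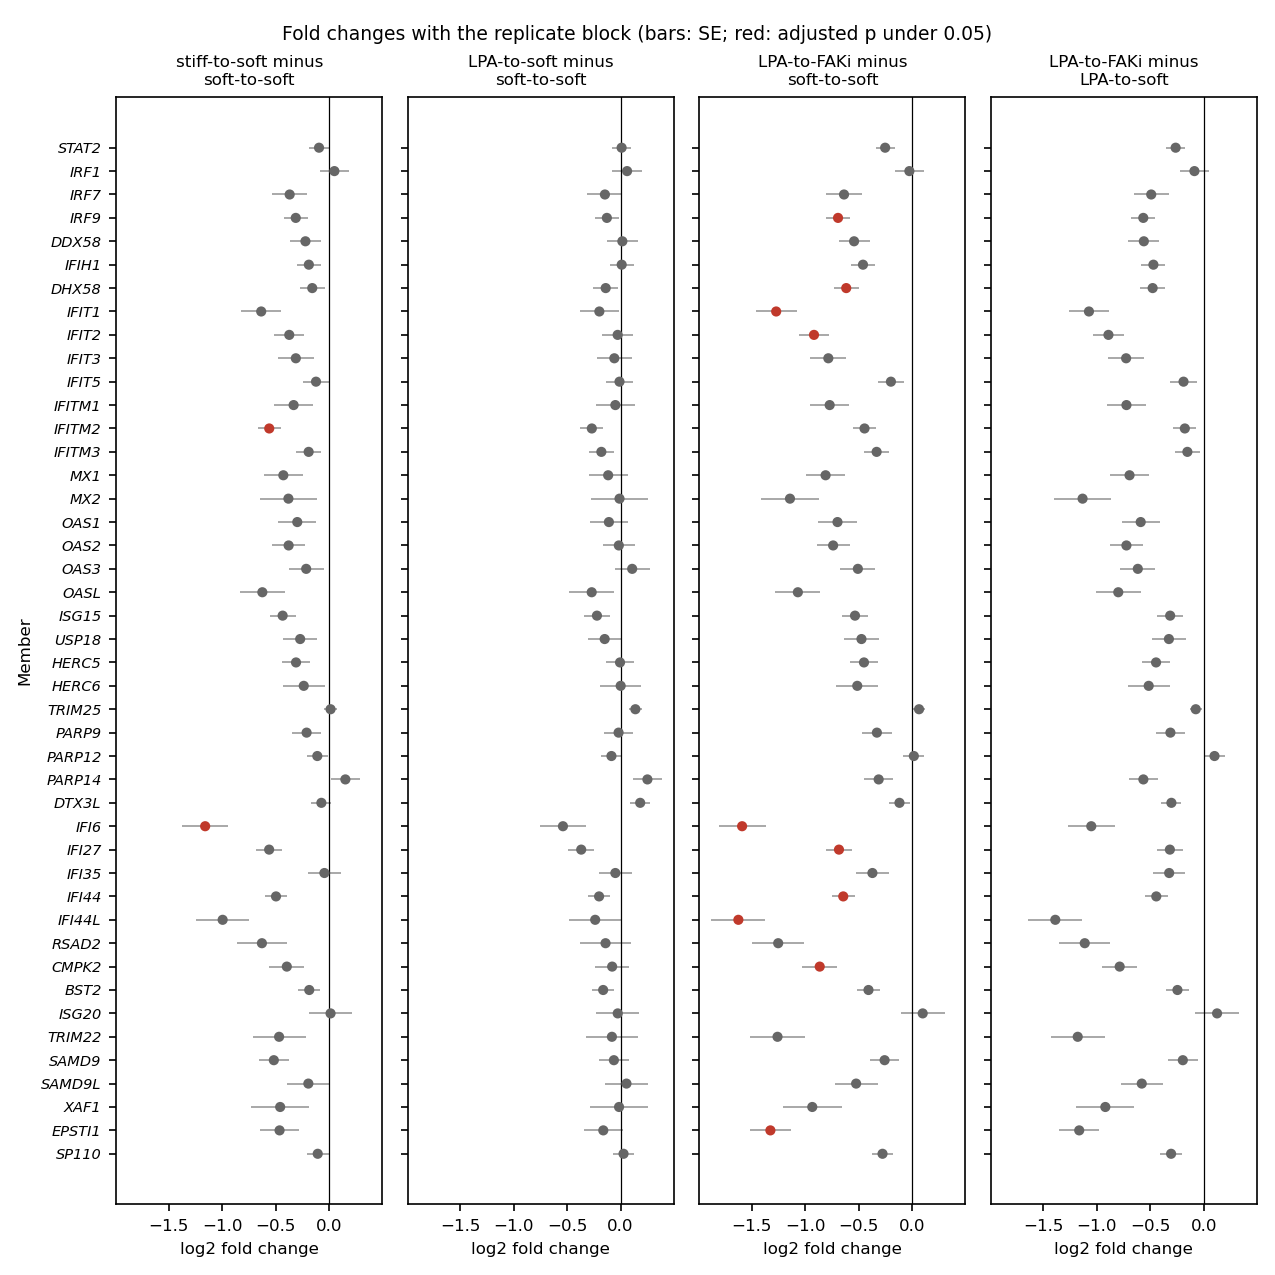
Log2 fold change with the replicate block on the x axis for each of the 44 members on the y axis, in 4 comparisons of conditions, with bars for the SE and red points for an adjusted p under 0.05. Most points lie left of 0 in each panel, and 2, 0, 10 and 0 members are called from left to right.

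FAK inhibition during replating was set against the same LPA conditioning without the inhibitor. No member was called with the block or without it (0% of all genes called in either), although 34 members had an unadjusted p under 0.05 with the block and 1 without it, against 3439 of the 15437 genes with the block; DESeq2 without the block called 0. The members were lower in LPA-to-FAKi in 42 of 44 cases, with a median of -0.50 with the block and -0.57 without, and 36 were lower in all 3 pairs against 22.2% of genes. The 8 exceptions were IRF1, IFITM2, IFITM3, USP18, PARP12, IFI27, ISG20 and SAMD9. The pair medians over the members were -0.65, -0.22 and -0.63, so replicate 2 again gave the smallest difference. The endothelial markers were lower too in each pair (-1.31, -0.35 and -0.62 in mean log2 CPM), and TCF4 was higher by 0.15, 0.27 and 0.50, while the squamous epithelial markers differed by -0.01, 0.03 and 0.09 and the late differentiation genes by 0.45, 0.10 and -0.18; the part of these lists was not tested.

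IFIT2 and EPSTI1 had the smallest p-values. IFIT2 was at 42.8, 54.1 and 113 CPM in LPA-to-soft replicates 1, 2 and 3 and at 17.0, 34.2 and 66.9 CPM in LPA-to-FAKi, a log2 difference of -0.89 ± 0.14 with the block (SE, adjusted p = 0.0752). EPSTI1 was at 14.9, 7.57 and 34.7 CPM and 4.75, 4.37 and 15.9 CPM, a difference of -1.17 ± 0.19 (adjusted p = 0.0752). Both were lower in each pair, and the groups overlapped. Only PARP14, which attaches ADP-ribose to proteins, and DTX3L, the ubiquitin ligase that pairs with PARP9, had all LPA-to-FAKi libraries below all LPA-to-soft libraries, against 5.4% of genes; they were picked out after their values were seen. PARP14 was at 107, 116 and 159.9 CPM in LPA-to-soft and 68.0, 88.0 and 101 CPM in LPA-to-FAKi, and DTX3L was at 87.3, 94.3 and 109.6 CPM and 70.2, 78.9 and 86.6 CPM.

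Whether members were called here depended on the test and the libraries. With the block, DESeq2 called 25 members, all lower, against 4.53% of genes lower and 4.91% higher, and limma-voom called 4 (0.104% lower). The edgeR test called 24 members without soft-to-soft replicate 2 (1.96% of genes lower) and 17 without both libraries that differ in low counts (0.705% of genes lower). Neither library is in the compared conditions. They enter through the low-count filter, the scaling, the shared estimate of the spread and the block.

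In replicates 1 and 3, LPA-to-FAKi was the lowest of the 4 conditions in 39 and 41 of the members, against 32.3% and 27.3% of all genes. In replicate 2 it was lowest in 17 members (20.5% of genes), and soft-to-soft was lowest in 14. The members lowest there in all 3 numbers were 17, against 5.05% of genes: IRF9, all 3 RNA sensors (DDX58, IFIH1 and DHX58), IFIT1, IFIT2, IFIT3, IFITM1, MX1, MX2, OAS2, HERC5, RSAD2, CMPK2, BST2, TRIM22 and EPSTI1. MX1, a GTPase that traps viral nucleocapsids, gives an example of the smaller steps in replicate 2: with soft-to-soft first, then stiff-to-soft, LPA-to-soft and, last, LPA-to-FAKi, it was at 185, 138, 162 and 82.9 CPM in replicate 1, 90.4, 93.4, 102 and 87.0 CPM in replicate 2 and 526, 293, 440.2 and 226 CPM in replicate 3. RSAD2, which makes a nucleotide that stops viral RNA synthesis, was at 15.7, 12.4, 14.5 and 3.84 CPM, 12.5, 7.85, 13.8 and 7.64 CPM and 35.4, 18.8, 26.3 and 15.1 CPM in the same order. Soft-to-soft was the highest condition in 31, 11 and 40 members, and in all 3 numbers in 10 (3.15% of genes).

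**Figure D3:**
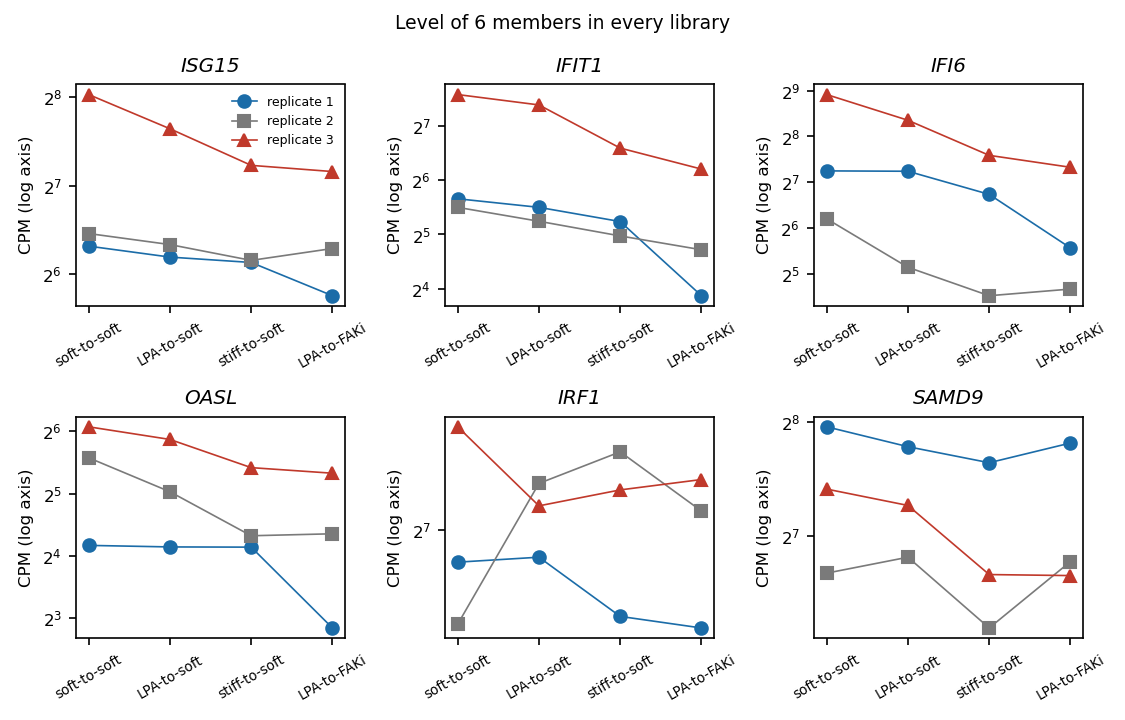
CPM on a log axis for 6 members in each of the 12 libraries, by condition on the x axis, with a line for each replicate number. IFIT1 is lowest in LPA-to-FAKi in every number, while IRF1 and SAMD9 do not keep the order of the others.

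Stiff conditioning was compared with soft conditioning to ask what remained after 1 day on soft gels. Without the block 0 members passed (0% of genes; 0 at an unadjusted p under 0.05, and 0 called by DESeq2). With it 2 passed, both lower, against 0.343% of genes lower and 0.24% higher, and 18 had an unadjusted p under 0.05, against 1580 of the 15437 genes. IFI6 was at 107, 23.0 and 192 CPM in stiff-to-soft against 152, 73.6 and 483 CPM in soft-to-soft and fell by 1.16 ± 0.22 (SE, adjusted p = 0.0471). Its pair differences were -0.51, -1.68 and -1.33, the widest in replicate 2. IFITM2, of a family of membrane proteins that block viral entry, was at 22.9, 28.1 and 46.8 CPM against 39.3, 42.5 and 58.8 CPM and fell by 0.56 ± 0.11 (adjusted p = 0.0474). The median over the members was -0.31 with the block and -0.42 without, and 19 were lower in all 3 pairs against 15.7% of genes. The pair medians, -0.19, 0.02 and -0.61, were farthest from 0 in replicate 3. The late squamous differentiation genes were lower as well in each pair (-0.53, -1.72 and -0.63 in mean log2 CPM). So were the squamous epithelial markers (-0.29, -0.83 and -0.41) and TCF4 (-0.71, -0.11 and -0.84). On the same measure the members differed by -0.23, -0.09 and -0.63. Single genes of both lists went the other way: CDH1 and EPCAM of the epithelial list and KLK5 and CALML5 of the late list were higher in each pair. The part of these lists was not tested. Of 12 edgeR block fits that each left out 1 library, IFI6 was called in 3 and IFITM2 in 2, with adjusted p of up to 0.257 and 0.217. In these fits 0 members passed without soft-to-soft replicate 2 or 3 (0.165% and 0.0382% of genes lower) or without replicate 2 or 3 of stiff-to-soft (0.0507% and 0.0318%). The same held without replicate 2 or 3 of LPA-to-soft (0.171% and 0.121%) or without LPA-to-FAKi replicate 2 (0.134%). In the same kind of fit 1 passed without replicate 1 of soft-to-soft (0.165% of genes lower) or of LPA-to-soft (0.3%) or without LPA-to-FAKi replicate 3 (0.393%), 3 without stiff-to-soft replicate 1 (0.274%) and 5 without LPA-to-FAKi replicate 1 (0.901%). Without the 2 libraries that differ in low counts, the median without the block was -1.15. It was taken against soft-to-soft replicate 3 alone, so replicate number and condition are mixed in it.

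Between LPA-to-soft and soft-to-soft cells, which ask what remained of LPA conditioning after 1 day without it, the members' differences were small and mostly below 0. They were negative in 33 of 44 members with the block and in 37 without it, against 8160 and 8262 of the 15437 genes. By pair, 32, 13 and 40 members were lower in replicates 1, 2 and 3, with pair medians of -0.08, 0.12 and -0.22, so replicate 2 went the other way. No member passed with or without the block (0% of all genes), and 4 with it and 0 without it had an unadjusted p under 0.05, against 1231 and 211 of all genes; DESeq2 called 0. The squamous epithelial markers were lower in each pair (-0.14, -0.56 and -0.19 in mean log2 CPM), as were the late differentiation genes (-0.63, -0.79 and -0.07). The mean of the endothelial markers CDH5 and VWF was higher (0.16, 0.06 and 0.12). Not every gene kept the sign of its list: CDH1 was higher in each pair, and VWF was lower in replicates 1 and 2. The part of these lists was not tested. The median difference was -0.06 with the block and -0.15 without, 12 members were lower in all 3 pairs against 18.3% of genes, and 2 were higher against 15.8%. IFI27, a small mitochondrial and nuclear membrane protein, had the smallest p: it was at 143, 63.7 and 234 CPM in LPA-to-soft and 153, 89.4 and 336 CPM in soft-to-soft, a log2 difference of -0.37 ± 0.12 (adjusted p = 0.516). IFITM2 came next, with 36.3, 31.2 and 49.0 CPM against 39.3, 42.5 and 58.8 CPM and a difference of -0.27 ± 0.11 (adjusted p = 0.583). Without the block the median turned to 0.43 without soft-to-soft replicate 3 (0.078 with the block), to 0.12 without LPA-to-soft replicate 2 and to 0.00015 without LPA-to-soft replicate 1, and the IFI27 difference turned to 0.28 without soft-to-soft replicate 3. Without the 2 libraries that differ in low counts, the median without the block was -0.91, against soft-to-soft replicate 3 alone, which mixes replicate number and condition.

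Stiff-to-soft levels lay below LPA-to-soft levels in 42 of 44 members and in all 3 pairs in 30, against 16.8% of genes, with a median of -0.24 with the block and -0.28 without. No member passed with or without the block (0.00648% of all genes passed as lower with it), and 10 with it and 0 without it had an unadjusted p under 0.05, against 1454 and 215 of all genes; DESeq2 called 0 with or without it. TCF4 (-0.64, -0.51 and -0.23) and the squamous epithelial markers (-0.15, -0.27 and -0.21 in mean log2 CPM) were lower in each pair. EPCAM, of the epithelial list, was higher in each pair, and the part of these genes was not tested. SAMD9, an antiviral protein that restrains translation, was at 199.7, 73.3 and 101 CPM in stiff-to-soft and 220.1, 113 and 154 CPM in LPA-to-soft, a difference of -0.45 ± 0.14 (adjusted p = 0.452). IFI44L was at 20.8, 4.53 and 45.8 CPM and 29.1, 8.20 and 92.8 CPM, a difference of -0.76 ± 0.24 (adjusted p = 0.457). DTX3L alone had groups that did not overlap, against 3.19% of genes, and was picked out after its values were seen. Without the block, the median turned to 0.20 and the IFI44L difference to 0.34 when LPA-to-soft replicate 3 was left out.

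Against LPA-to-FAKi, stiff-to-soft levels were higher in all 3 pairs in 27 members (18.7% of genes) and lower in 2 (19.3%), with a median of 0.31 with the block and 0.29 without. No member passed with or without the block (0.00648% of genes passed as higher and 0.0259% as lower with it), while 17 with it and 0 without it had an unadjusted p under 0.05, against 1923 and 453 of all genes; DESeq2 called 0 without the block and 5 with it, all higher (1.41% of genes higher). In each pair the endothelial markers (by 0.87, 0.82 and 0.53 in mean log2 CPM) and fibroblast markers (1.85, 0.16 and 0.60) were higher. The late differentiation genes (-0.35, -1.03 and -0.38), squamous epithelial markers (-0.14, -0.30 and -0.30), leukocyte markers (-0.14, -0.09 and -0.12) and TCF4 (-0.79, -0.78 and -0.73) were lower. These are list means, and not every gene of a list kept its sign. Of the fibroblast markers, COL1A1 was at 24.6, 17.7 and 16.1 CPM against 24.3, 14.7 and 14.1 CPM. LUM, near 0 in both, was at 0.397 against 0 CPM in replicate 1, and PDGFRB was lower in replicates 2 and 3. The part of these lists was not tested. PARP14 alone had groups that did not overlap (3.64% of genes), and was picked out after its values were seen. EPSTI1, at 12.8, 7.12 and 22.5 CPM in stiff-to-soft, differed by 0.86 ± 0.19 (adjusted p = 0.115) and DHX58, at 12.1, 9.71 and 20.1 CPM against 7.41, 7.94 and 15.2 CPM, by 0.46 ± 0.12 (adjusted p = 0.148). Without soft-to-soft replicate 2, 2 members passed with the block (0.741% of genes higher), and without stiff-to-soft replicate 3 the median without it was -0.11.

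The comparison named by the design text set the 6 libraries of the learned conditions against the other 6. No member passed with or without the block (0.00648% of genes passed as higher with it), 1 with the block and 0 without it had an unadjusted p under 0.05 (1535 and 446 of all genes), and DESeq2 called 0 with or without it. The median was 0.09 with the block and 0.05 without. The latter ran from -0.18 without LPA-to-soft replicate 3 to 0.40 without soft-to-soft replicate 3, and was also below 0 without soft-to-soft replicate 2, stiff-to-soft replicate 3 or replicate 1 or 2 of LPA-to-FAKi; without both libraries that differ in low counts it was -0.082. PARP14 had the smallest p, with a difference of 0.35 ± 0.11 (adjusted p = 0.353), followed by PARP12, also an ADP-ribosyltransferase, with -0.11 ± 0.07 (adjusted p = 0.613). Members higher in all 3 pairs of class means numbered 20, against 19.1% of genes, and 3 were lower, against 20.8%. These comparisons share libraries with each other, so their values stand side by side and not as separate evidence.

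**Figure D4:**
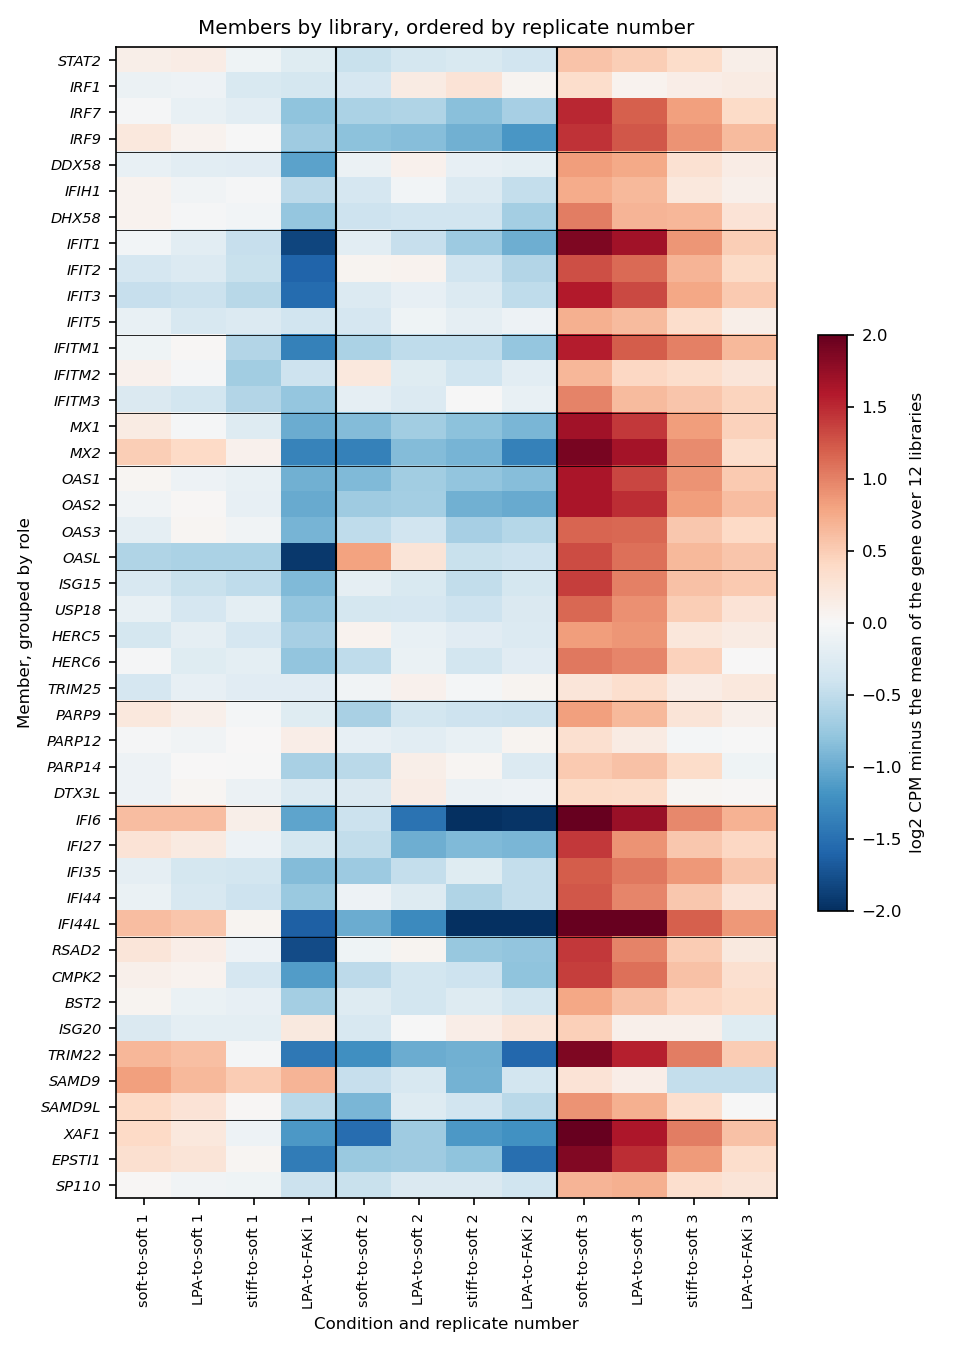
Log2 CPM minus the mean of the gene over 12 libraries, by colour, for the 44 members on the y axis in groups by role, with the libraries on the x axis in order of replicate number; differences past 2 are drawn at the end of the scale. The 4 libraries of replicate 3 are above the mean in most members, and the LPA-to-FAKi library of replicate 1 is among the lowest columns.

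The largest difference in these genes lay between libraries of different replicate number, within the same 4 conditions. Between replicates 1 and 3, with condition as a term, 40 of 44 members passed as higher in replicate 3 and 1 as lower, against 20.6% of all genes higher and 19.2% lower. The median log2 difference was 1.09. All 4 libraries of replicate 3 stood above all 4 of replicate 1 in 33 members, against 17.4% of genes, and below them in 1, against 16.1%. By role, all 4 transcription factors, all 3 RNA sensors, all 4 IFIT, all 3 IFITM, both MX and all 4 OAS genes passed as higher, as did all 5 genes of the ISG15 system, 3 of the 4 PARP and DTX3L genes, all 5 IFI genes, 4 of 7 other antiviral genes, and XAF1, EPSTI1 and SP110. What a replicate number stands for was not given, so a difference between numbers cannot be told apart from anything else that differed between those sets of libraries.

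ISG15, the ubiquitin-like modifier, was at 79.7, 70.2, 73.2 and 54.1 CPM in replicate 1 (conditions in the order given for MX1) and at 262, 150.2, 200.1 and 143 CPM in replicate 3. The lowest replicate 3 library was above the highest of replicate 1, and ISG15 was higher by 1.42 ± 0.11 (SE, adjusted p = 8.17e-06). IFIT1, at 50.4, 37.7, 45.2 and 14.7 CPM and 190.0, 96.1, 167 and 73.6 CPM, was higher by 1.85 ± 0.17 (adjusted p = 2.1e-05). IFIT3, at 74.4, 69.5, 76.2 and 35.3 CPM and 309.5, 176, 256 and 148 CPM, was higher by 1.80 ± 0.15 (adjusted p = 1.27e-05), and IFIT2 by 1.51 ± 0.13 (adjusted p = 1.31e-05). In each of these the replicate 3 libraries lay above those of replicate 1. OASL, a relative of the oligoadenylate synthetases that lacks their activity, was higher by 1.81 ± 0.19, at 40.1 to 67.2 CPM against 7.18 to 18.0 CPM, and OAS2, which makes the oligoadenylates that activate RNase L, was higher by 1.43 ± 0.13. IFITM1 was higher by 1.60 ± 0.16 and IFITM3 by 1.16 ± 0.10. Among the other leading genes IFI35 was higher by 1.36 ± 0.13, IFI44 by 1.16 ± 0.09, IRF9 by 1.16 ± 0.10 and TRIM25, a ubiquitin ligase of the RIG-I pathway, by 0.47 ± 0.05, all with adjusted p of at most 5.36e-05.

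A few members did not follow, and they were picked out after their values were seen. SAMD9 was at 248, 199.7, 220.1 and 225 CPM in replicate 1 and 170.2, 101, 154 and 101 CPM in replicate 3; the difference was -0.79 ± 0.12 (adjusted p = 0.000488), and it was the only member to pass as lower. Its neighbour in name, SAMD9L, was at 50.6, 38.7, 46.0 and 26.4 CPM and 71.6, 48.2, 62.5 and 38.0 CPM and did not pass, at 0.45 ± 0.17 (adjusted p = 0.0576). PARP12 ranged from 60.7 to 87.5 CPM over all 12 libraries and ISG20, an exonuclease of single-stranded RNA, from 5.44 to 9.43 CPM, and their differences of 0.10 and 0.25 did not pass.

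Replicate 2 was not uniformly at the level of replicate 1. Compared with replicate 1, 5 members were higher and 15 lower in replicate 2 past the test, against 19% and 17% of all genes, with a median of -0.12. Among the lower ones were IFI6, at 152, 107, 151 and 47.4 CPM in replicate 1 and 73.6, 23.0, 35.3 and 25.4 CPM in replicate 2, at -1.58 ± 0.19 (adjusted p = 0.000195), and IFI44L, at 30.5, 20.8, 29.1 and 6.39 CPM and 10.0, 4.53, 8.20 and 4.81 CPM, at -1.55 ± 0.22 (adjusted p = 0.000474). The log2 difference was -1.18 ± 0.12 in SAMD9, -1.14 ± 0.22 in TRIM22, a ubiquitin ligase with antiviral activity, -1.01 ± 0.24 in MX2, -0.84 ± 0.10 in IRF9 and -0.82 ± 0.11 in IFI27. It was -0.76 ± 0.16 in EPSTI1, -0.54 ± 0.13 in OAS2 and -0.35 ± 0.08 in STAT2. OASL was instead higher in replicate 2 by 0.97 ± 0.18 (adjusted p = 0.00218), at 47.6, 20.0, 32.6 and 20.5 CPM against 18.0, 17.6, 17.7 and 7.18 CPM, and TRIM25 was higher by 0.25 ± 0.05; the other 3 that were higher, IFIT2, IFIT3 and IFITM3, were picked out after their values were seen. Replicates 1 and 2 overlapped in most members, with 3 wholly higher and 5 wholly lower in replicate 2, against 14.1% and 11.8% of genes.

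Compared with replicate 2, 41 members were higher and 0 lower in replicate 3 past the test, against 11.6% and 12.2% of genes, with a median of 1.10. In 37 members all replicate 3 libraries stood above all replicate 2 libraries, against 12.7% of genes. IFI44L was at 10.0, 4.53, 8.20 and 4.81 CPM in replicate 2 and 119, 45.8, 92.8 and 36.2 CPM in replicate 3 and was higher by 3.32 ± 0.23 (adjusted p = 3.58e-05). IFI6, at 73.6, 23.0, 35.3 and 25.4 CPM and 483, 192, 327 and 161 CPM, was higher by 2.89 ± 0.20 (adjusted p = 3.58e-05). EPSTI1 was higher by 2.08 ± 0.17 and IRF9, at 15.1, 13.6, 14.8 and 11.9 CPM and 72.7, 49.3, 63.1 and 41.1 CPM, by 2.00 ± 0.10 (adjusted p = 6.88e-06). OAS2 was higher by 1.97 ± 0.14, MX1 by 1.91 ± 0.16, OAS1 by 1.89 ± 0.16, IRF7, a factor that induces interferon genes, by 1.65 ± 0.15, IFI27 by 1.63 ± 0.11, ISG15 by 1.21 ± 0.11, IFI44 by 1.12 ± 0.09 and DHX58 by 1.12 ± 0.10. The 3 that did not pass, picked out after their values were seen, were IRF1, an early interferon-induced factor, PARP12 and ISG20, with differences of 0.14, 0.23 and 0.11. IRF1 was at 102, 155, 143 and 134 CPM in replicate 2, where soft-to-soft was lowest, and at 165, 141, 136 and 145 CPM in replicate 3, where soft-to-soft was highest.

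Other members are given by their range over the 4 libraries of each number. DDX58 (RIG-I), a cytosolic sensor of short viral RNA, ran over 24.7 to 46.5 CPM in replicate 1, 45.3 to 54.9 CPM in replicate 2 and 57.4 to 91.8 CPM in replicate 3, and IFIH1 (MDA5), the sensor of long double-stranded RNA, over 33.5 to 50.2 CPM in replicate 1, 34.5 to 46.3 CPM in replicate 2 and 51.3 to 79.8 CPM in replicate 3. In both the lowest library of replicate 3 was LPA-to-FAKi. MX2, a relative of MX1 that blocks nuclear entry of some viruses, ran over 11.9 to 42.0 CPM in replicate 1, 11.7 to 16.4 CPM in replicate 2 and 38.1 to 112 CPM in replicate 3. OAS1 ran over 33.4 to 67.2 CPM in replicate 1, 35.4 to 40.3 CPM in replicate 2 and 93.6 to 202 CPM in replicate 3, and OAS3 over 127 to 249 CPM in replicate 1, 153 to 184 CPM in replicate 2 and 319 to 539.8 CPM in replicate 3. In the ISG15 system all 5 genes had all replicate 3 libraries above all others. Of all genes, 17.4% had them wholly above replicate 1 and 12.7% wholly above replicate 2. USP18, which removes ISG15 from proteins and dampens receptor signalling, ran over 13.2 to 20.3 CPM in replicate 1, 16.8 to 18.4 CPM in replicate 2 and 27.3 to 50.1 CPM in replicate 3, and HERC5, the main ISG15 ligase, over 5.98 to 8.34 CPM in replicate 1, 7.85 to 9.98 CPM in replicate 2 and 10.6 to 17.5 CPM in replicate 3.

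PARP9, the partner of DTX3L, ran over 71.2 to 97.2 CPM in replicate 1, 53.9 to 65.5 CPM in replicate 2 and 90.1 to 149 CPM in replicate 3, with replicate 2 lowest. BST2 (tetherin), which holds budding virions at the cell surface, ran over 157 to 261 CPM in replicate 1, 194 to 211 CPM in replicate 2 and 325 to 427 CPM in replicate 3. TRIM22 ran over 11.1 to 46.9 CPM in replicate 1, 9.97 to 15.3 CPM in replicate 2 and 42.2 to 109 CPM in replicate 3, and XAF1, a pro-apoptotic antagonist of the inhibitor XIAP, over 13.5 to 39.4 CPM in replicate 1, 10.4 to 18.3 CPM in replicate 2 and 45.0 to 122 CPM in replicate 3. In TRIM22 and XAF1 the LPA-to-FAKi library of replicate 1 lay near the replicate 2 libraries, and the other 3 libraries of replicate 1 lay above them. SP110, a nuclear body protein, ran over 25.0 to 34.0 CPM in replicate 1, 24.7 to 27.6 CPM in replicate 2 and 40.4 to 54.9 CPM in replicate 3, and IFIT5, an RNA-binding relative of IFIT1, over 25.1 to 29.6 CPM in replicate 1, 25.9 to 30.6 CPM in replicate 2 and 35.6 to 53.3 CPM in replicate 3.

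Late squamous differentiation genes moved with the numbers in another order: their summed level was 1396 to 2744 CPM in replicate 1, 541 to 1477 CPM in replicate 2 and 385 to 579 CPM in replicate 3. Squamous epithelial markers summed to between 13484 and 17000.2 CPM in replicate 1, 6739 and 13116 CPM in replicate 2, and 8241 and 11198 CPM in replicate 3. The part of cell state in the members' differences was not tested.

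Of 78 other genes of the interferon pathway, 74 were in the table and 66 were tested. None passed in any comparison of conditions with or without the block. Interferon genes themselves were at or near 0: IFNB1 reached at most 0.244 CPM and IFNL1 0.455 CPM, IFNE, an epithelial type I interferon, ran from 0.367 to 2.16 CPM, and IFNA1, IFNA2, IFNK, IFNW1 and IFNG were at 0 in all 12 libraries. The receptor subunit IFNAR1 ran from 53.6 to 72.1 CPM and the kinase JAK1 from 91.1 to 119 CPM, and neither passed between replicates 1 and 3, with differences of 0.11 (adjusted p = 0.276) and 0.03 (adjusted p = 0.711). The type III receptor chain IFNLR1 differed by -0.61 ± 0.09 in replicate 2 relative to replicate 1. The kinase TYK2 was lower in replicate 3 than in replicate 1, at -0.67 ± 0.05 (adjusted p = 1.16e-05), opposite in sign to 43 of the 44 members.

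Past the test, 31 of the 66 pathway genes were higher and 7 lower in replicate 3 than in replicate 1, 5 were higher and 14 lower in replicate 2 than in 1, and 35 were higher and 2 lower in replicate 3 than in 2; the shares of all genes are those given for the members. LY6E, a membrane protein induced by interferon, was higher by 1.14 ± 0.08 in replicate 3 than in replicate 1, SAMHD1, which destroys deoxynucleotides, by 1.25 ± 0.12, UBE2L6, the ISG15-conjugating enzyme, by 1.05 ± 0.11 and IFI30, a lysosomal thiol reductase, by 0.73 ± 0.06. HELZ2, a helicase, differed by -0.44 ± 0.07 between replicates 2 and 1 and by 0.92 ± 0.07 between replicates 3 and 2. In LPA-to-FAKi relative to LPA-to-soft, 30 of the 66 were lower in all 3 pairs, against 22.2% of all genes.

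The members' differences were set beside their promoters. The median difference of replicate 3 minus replicate 1 was 1.09 in the 22 with a match, 0.91 in the 13 without and 1.28 in the 9 with no promoter entry. For LPA-to-FAKi minus soft-to-soft with the block it was -0.52, -0.51 and -0.74 in the same order, and the members called lower were 6 of 22, 2 of 13 and 2 of 9. SAMD9, with its match at -136, was lower in replicate 3 than in replicate 1, while IRF9, without one in the window, was higher.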

How the data were processed

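RNA sequencing of 12 Cal27 libraries was analysed, 3 for each of 4 conditions, grouped by the sample labels. The authors deposited whole-number read counts per gene symbol. The build hg19 and the tools STAR, HTSeq, cutadapt, DESeq2 and FastQC are named, with no version, in the submitters' processing notes; per the labels, a stranded TruSeq kit was used. The sources used here do not give the strand setting of the counting. A second deposited table of normalized log2 values was not used here. The members, the gene lists and the tests were chosen with earlier results of these data known.

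Counts were tested with the quasi-likelihood F test of edgeR 4.0.16 in R 4.3.3, with TMM scaling and edgeR's low-count filter, which left 15437 of 25382 symbols. All 12 libraries entered 1 model of 4 conditions, or of 2 classes for learned against not learned, and p-values were adjusted by Benjamini-Hochberg over all genes tested, with a threshold of 0.05. Libraries of different replicate number were compared in a model of condition and number. Levels are CPM with TMM scaling, log2 CPM used a prior count of 2, and fold changes are log2 ± SE. The script was tested on simulated data.

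Replicate numbers come from the labels. With the condition means removed, libraries of the same number correlated at r from 0.312 to 0.659 (18 pairs) and libraries of different numbers at r from -0.517 to 0.037 (36 pairs), above the threshold of 0.1, and 12 of 12 libraries correlated best with their own number; the numbers were taken to pair the samples, and the fit with the block is given beside the fit without it. Alternatives were DESeq2 1.42.0, voom of limma 3.58.1, no low-count filter, median-ratio size factors, the 10 libraries with even low counts alone or halved, and leaving out each library in turn. Members were named by rule: those called in either fit, at most the 12 with the smallest p, or, where fewer than 2 were called, the 2 with the smallest p in the fit with the block. A few listed genes are not reported here by name.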

Additional observations from a re-analysis of the deposited data

Results flagged for a closer look

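Each of the 145 groups examined was a replicate number (4 libraries) or a class of the design (6 libraries). In 8 of the 145 groups 1 library stood far from the others, a share near the 1 group in 20 that chance gives. The genes examined were the members named by the rule, and some were named for their difference in LPA-to-FAKi. Which library stood apart is therefore not independent of that choice. All 8 were replicate numbers, so the share among the groups of 4 libraries was above that over all 145. In all 8 the library that stood apart was LPA-to-FAKi, and it was the lowest. In replicate 1 these were IFIT2 at 4.09 log2 CPM (next library 5.25), IFIT3 at 5.14 (next 6.12), OASL at 2.85 (next 4.14), EPSTI1 at 2.25 (next 3.69), DHX58 at 2.89 (next 3.60) and PARP14 at 6.09 (next 6.63). In replicate 2 they were EPSTI1 at 2.14 log2 CPM (next 2.84) and DHX58 at 2.99 (next 3.25). Members of 1 replicate number share their libraries, so these values are not separate observations.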

How the results depend on the processing

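Without the replicate block, 0 members passed in every comparison of conditions, under each alternative without it. The number called with the block moved with the test. For stiff-to-soft against soft-to-soft it was 2 with edgeR's replicate block (0.343% of all genes lower in that fit), 7 with DESeq2 (1.81%), 3 with voom (0.512%), 4 with no filter (0.487%), 2 with median-ratio size factors (0.389%) and 2 with halved counts (0.375%), all lower. For LPA-to-FAKi against soft-to-soft it was 10, 27, 15, 19, 11 and 11 in the same order (0.408%, 3.07%, 0.913%, 0.785%, 0.447% and 0.484% of genes lower), and for LPA-to-FAKi against LPA-to-soft it was 25 with DESeq2 (4.53%), 4 with voom (0.104%), 4 with no filter (0.0769%) and 17 in the 10 libraries with even low counts (0.705%). For stiff-to-soft against LPA-to-FAKi it was 5 with DESeq2 (1.41% of genes higher) and 2 in those 10 libraries (0.644%), all higher. In them the members' median without the block, relative to soft-to-soft, was -1.15 for stiff-to-soft, -0.91 for LPA-to-soft and -1.40 for LPA-to-FAKi. Soft-to-soft was there replicate 3 alone, so replicate number and condition are mixed in these medians. For learned against not learned the median in the same libraries was -0.082 (0.23 with the block). Between replicates 2 and 1, 13 members passed with no condition term, 3 higher and 10 lower in replicate 2, against 16% and 14.8% of genes. With each library left out in turn and no block, the median ran from -0.78 to 0.22 for stiff-to-soft against soft-to-soft, from -0.61 to 0.43 for LPA-to-soft against soft-to-soft, from -0.85 to -0.061 for LPA-to-FAKi against LPA-to-soft, from -1.08 to -0.060 for LPA-to-FAKi against soft-to-soft, from -0.64 to 0.20 for stiff-to-soft relative to LPA-to-soft, from -0.11 to 0.58 for stiff-to-soft relative to LPA-to-FAKi and from -0.18 to 0.40 for learned against not learned. With the block it ran from -0.46 to -0.15, -0.24 to 0.078, -0.72 to -0.43, -0.76 to -0.46, -0.33 to -0.14, 0.18 to 0.52 and 0.01 to 0.23 in the same order. Members called with the block and a library left out ran from 0 to 5 for stiff-to-soft (0.0318% to 0.901% of genes lower) and from 0 to 29 for LPA-to-FAKi against soft-to-soft, from 0 to 24 for LPA-to-FAKi against LPA-to-soft (0% to 1.96%) and from 0 to 2 for stiff-to-soft against LPA-to-FAKi (0% to 0.741% higher). For LPA-to-FAKi against soft-to-soft, leaving out replicates 1, 2 and 3 in order, it was 1, 29 and 0 when the library was soft-to-soft (0.0445%, 1.19% and 0% of genes lower), 11, 9 and 6 when stiff-to-soft (0.421%, 0.374% and 0.14%), 11, 6 and 7 when LPA-to-soft (0.581%, 0.228% and 0.236%), then 3, 12 and 8 when LPA-to-FAKi (0.0698%, 0.146% and 0.849%). Between replicate numbers they ran from 39 to 42 for 3 against 1 (16% to 20.7% of genes higher), from 39 to 42 for 3 against 2 (6.07% to 12.8%) and from 15 to 22 for 2 against 1 (12.8% to 17.5% higher and 12.1% to 17.3% lower). Without the block and without soft-to-soft replicate 3, IFI27 in LPA-to-soft against soft-to-soft turned to 0.28 and IRF9 in LPA-to-FAKi against soft-to-soft to 0.013, against -0.90 for IFI27 without LPA-to-soft replicate 3 and -1.49 for IRF9 without LPA-to-FAKi replicate 3; without LPA-to-soft replicate 3, IFI44L in stiff-to-soft against LPA-to-soft turned to 0.34, against -1.78 without stiff-to-soft replicate 3. The cause was not tested. The lowest count of a member was 302; what limited the number of calls was not tested.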
